A study of Homo sapiens with 8 samples.

Results

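H3K9ac peaks centred in transposable elements were described in spheroids of MIA PaCa-2, an established human pancreatic cancer cell line. They were all peaks of the 2 deposited H3K9ac lists whose detailed annotation, from HOMER on build hg19, named a LINE, a SINE or an LTR element. There were 832 such peaks among 20326 in the stromal list and 188 among 7141 in the astromal list, or 1020 of 27467 in all. Stromal spheroids grew in a hyaluronan hydrogel with a collagen-derived component and received medium conditioned by immortalised myofibroblasts taken from human pancreatic tumours. Astromal spheroids grew in a hyaluronan hydrogel without that component and received plain low-serum medium. The effects of the gel component and of the conditioned medium cannot be told apart, since both came together. Each mark and condition had 1 library, so no difference between conditions has a replicate check and none is given a p-value.

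Transposable elements are repeated sequences that spread by copying themselves. LINEs carry their own copying machinery, of which L1 is the family still active in humans and L2 and CR1 are ancient ones. SINEs such as Alu and the older MIR borrow the machinery of LINEs, and LTR elements are remnants of retroviruses that entered the germ line. Most copies are kept silent by DNA methylation and H3K9 methylation, which in the LTR class is often laid down through zinc finger proteins and TRIM28. Some copies instead act as promoters or enhancers of nearby genes. H3K9ac and H3K27ac are acetyl marks on lysines of histone H3 that go with active promoters and enhancers. H3K9ac occupies the residue that carries the silencing methylation.

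Levels below are the deposited tags per peak, scaled to 10000000 tags of the library and called normalised tags. The H3K9ac libraries had an estimated depth of 7569791 stromal and 3923202 astromal tags, and the H3K27ac libraries 17190695 and 13453902 tags. The lowest listed H3K9ac peak held 8 tags in the stromal and 5 tags in the astromal list. Intervals in brackets are exact 95% intervals that cover counting error only. The longer stromal list came from the deeper library, so depth and condition cannot be told apart in a number of peaks. The share of cells carrying a mark and the amount of the mark per cell cannot be told apart either. A peak had to be placed in an intron or between genes to be counted, because no peak annotated to a promoter, exon or transcript end carried a repeat name in the lists. Copies of young L1 and Alu elements resemble each other closely, and how reads matching several copies were treated is not given in the sources used here.

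The labelled epithelial cell type was checked first. Of 5 pancreatic epithelial genes, 3 had a stromal and 1 had an astromal H3K9ac peak within 1 kb of a transcription start site (TSS). KRT18, a keratin of simple epithelia, had 26.4 stromal and 25.5 astromal normalised tags. KRT8 and KRT19 had a peak in the stromal list alone, and the defining epithelial markers EPCAM and CDH1 had none in either list. Of 6 mesenchymal or fibroblast genes, VIM, COL1A1, COL1A2 and ACTA2 had a stromal peak, with a summed level of 169.1 normalised tags, against 0 of 6 genes in the astromal list. PDGFRB and FAP had no peak, nor did the blood genes PTPRC and CD3E or the endothelial genes PECAM1 and CDH5. Over all protein-coding genes, 48.7% had such a stromal peak and 24.1% an astromal one. More peaks at these few markers in the stromal list thus go with more peaks at genes in general. The part of the markers in the results at repeats was not tested.

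Peaks in transposable elements made up 4.09% (3.83 to 4.37) of the stromal list and 2.63% (2.27 to 3.03) of the astromal list. Among intron and intergenic peaks alone the shares were 8.99% of 9256 stromal and 6.80% of 2765 astromal peaks. The stromal list held 4.43 times as many of them (3.77 to 5.21), while it held 2.85 times as many peaks in all (2.77 to 2.92). The closest like group, intron and intergenic peaks with neither a repeat nor a CpG island at their centre (non-repeat peaks below), numbered 4473 stromal and 1151 astromal, a ratio of 3.89 (3.64 to 4.15). The interval for the elements overlaps that of the non-repeat peaks. The difference in share depended on how weak peaks were left out. At a common minimum of 25 normalised tags, elements made up 2.45% (2.17 to 2.76) of stromal and 1.66% (1.23 to 2.19) of astromal peaks. These intervals overlap only at their ends. The list medians differ, at 26.4 stromal and 22.9 astromal normalised tags. Among peaks at or above the median level of their list, elements made up 2.41% (2.12 to 2.72) of stromal and 2.11% (1.69 to 2.60) of astromal peaks, with overlapping intervals.

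SINEs were the most frequent class in both lists, with 404 stromal and 114 astromal peaks, a ratio of 3.54 (2.87 to 4.40). LINEs had 245 stromal and 48 astromal peaks, a ratio of 5.10 (3.73 to 7.11). LTR elements had 183 stromal and 26 astromal peaks, a ratio of 7.04 (4.65 to 11.1). The LTR interval lies above that of SINEs and overlaps that of LINEs. Among peaks of at least 25 normalised tags the ratios were 10.2 (4.10 to 32.7) for LTR elements and 4.70 (3.21 to 7.06) for SINEs, and these intervals overlap. LTR elements took 22% (19.2 to 25.0) of the stromal and 13.8% (9.24 to 19.6) of the astromal peaks in elements, again with overlapping intervals, and SINEs took 48.6% and 60.6%.

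Among families, the SINEs split into 223 stromal and 64 astromal peaks in Alu and 181 stromal and 50 astromal peaks in MIR. The LINEs comprised 129 stromal and 24 astromal peaks in L1 and 103 stromal and 24 astromal peaks in L2. CR1, an ancient LINE family, had 11 stromal peaks, or 0.0541% (0.0270 to 0.0968) of the stromal list. It had 0 astromal peaks, with an exact interval of 0 to 0.0516% of the astromal list, and these intervals overlap. ERV1, the largest retroviral family, had 108 stromal and 20 astromal peaks, a ratio of 5.40 (3.33 to 9.19). ERVL had 30 stromal and 2 astromal peaks, ERVL-MaLR 23 and 1, and ERVK, the youngest human retroviral family, 16 and 3. With so few astromal peaks these ratios are loose, as the one for ERVL shows at 15 (3.81 to 130). The other families, RTE, ERV, Gypsy and 2 unplaced LTR groups, had 1 or 2 stromal peaks each.

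**Figure D1:**
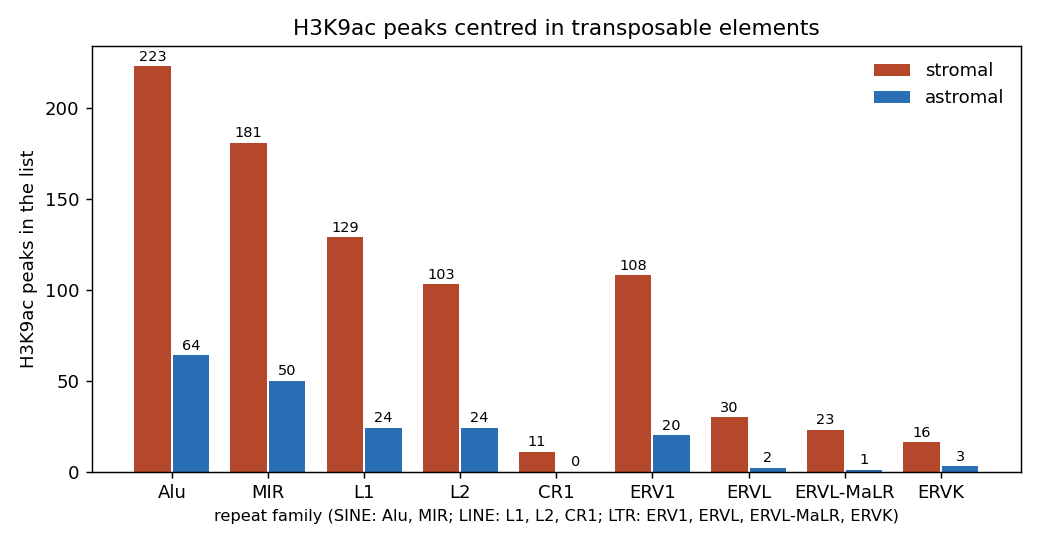
Number of H3K9ac peaks centred in each repeat family named here, with stromal bars left of astromal bars and the count above each bar. Alu is the largest family with 223 stromal and 64 astromal peaks, and CR1, ERVL and ERVL-MaLR have 0, 2 and 1 astromal peaks.

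Distance to the nearest TSS set the families apart from each other. MIR peaks lay close to genes, with a median distance of 0.921 kb stromal and 0.579 kb astromal, and 93 of 181 stromal and 39 of 50 astromal MIR peaks were within 1 kb. L1 peaks lay far away, with medians of 32.6 kb stromal and 36.1 kb astromal, and 10 of 129 stromal and 1 of 24 astromal L1 peaks were within 1 kb. L2, of an age like that of MIR, had medians of 5.03 kb stromal and 1.16 kb astromal. Alu had 9.37 kb stromal and 3.11 kb astromal, and ERV1 had 19.2 kb stromal and 3.27 kb astromal. The same order of MIR before Alu before L1 was seen in both lists. The number of all genomic copies of each family and their distances to a TSS were not examined. Neither the counts of peaks nor this order is therefore set against the copies in general.

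The stromal peaks in elements lay farther from genes than the astromal ones as a whole. The median was 10.8 kb in the stromal and 1.30 kb in the astromal list. Within 1 kb of a TSS lay 198 of 832 stromal peaks (23.8%) and 80 of 188 astromal peaks (42.6%). Among peaks of at least 25 normalised tags the contrast was smaller, with 37.3% (31.6 to 43.3) of stromal and 46.9% (32.5 to 61.7) of astromal peaks within 1 kb and medians of 2.73 kb and 1.13 kb. All of the 198 stromal and 80 astromal peaks within 1 kb were in introns downstream of the TSS. In the first intron were 190 of these stromal and 76 of these astromal peaks. Peaks just upstream are absent here by construction, since sequence there is annotated as promoter whatever repeat it holds. The nearest upstream peak in an element was at 1036 bp in the stromal and 1007 bp in the astromal list. Introns held 370 stromal and 104 astromal peaks, and 462 stromal and 84 astromal peaks were intergenic.

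**Figure D2:**
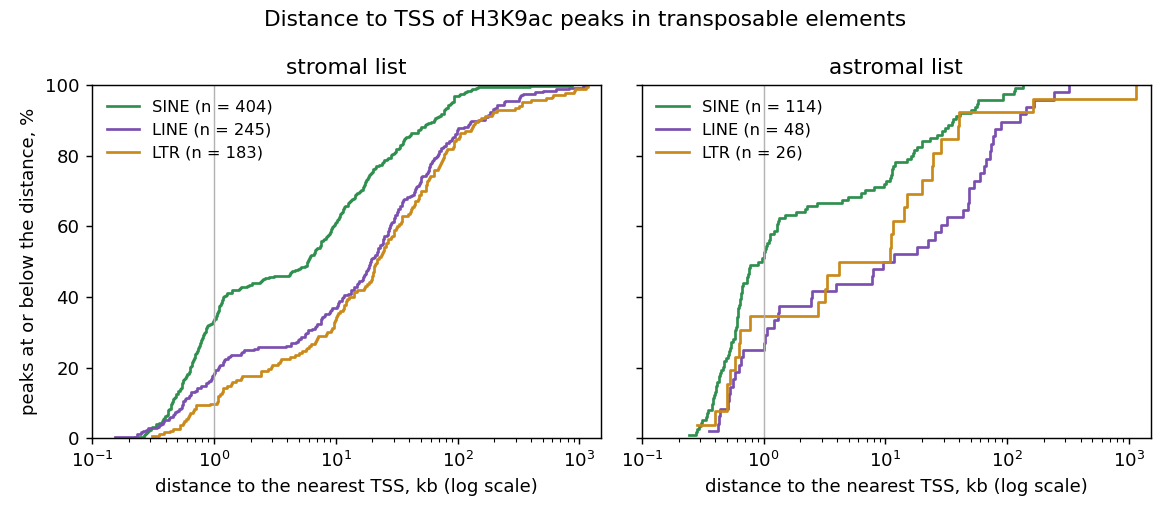
Cumulative share of peaks in SINEs, LINEs and LTR elements by distance to the nearest TSS in kb on a log scale, stromal list left and astromal list right. The vertical line marks 1 kb, below which lie 33.4% of stromal and 51.8% of astromal SINE peaks, against 9.84% of stromal and 34.6% of astromal LTR peaks.

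Over the whole lists, the excess of stromal peaks was larger far from genes, both inside and outside elements. Within 1 kb the ratio of stromal to astromal peaks was 2.48 in elements and 2.70 in non-repeat peaks. Over 5 kb it was 6.93 (5.44 to 8.94) in elements, from 527 stromal and 76 astromal peaks, and 6.50 (5.76 to 7.37) in non-repeat peaks. Among peaks of at least 25 normalised tags the ratio in elements was 4.48 (2.83 to 7.38) within 1 kb. It was 8.42 (4.61 to 16.8) at 5 to 50 kb, from 101 stromal and 12 astromal peaks. Beyond 50 kb it was 4.50 (1.82 to 13.3), from 27 stromal and 6 astromal peaks, and all of these intervals overlap. Non-repeat peaks then had 4.67 (4.05 to 5.41) within 1 kb and 7.71 (4.63 to 13.6) beyond 50 kb. At matched distance in the whole lists the intervals of the 2 groups overlapped in every range examined. LTR elements over 5 kb from a TSS had the highest ratio of the classes, 10.8 (6.10 to 20.7), from 140 stromal and 13 astromal peaks. LINEs at that distance had 6.56 (4.36 to 10.2) and SINEs 5.83 (4.08 to 8.56), and all 3 intervals overlap each other and that of non-repeat peaks. The share of elements among intron and intergenic peaks without a CpG island was 9.19% stromal and 9.91% astromal within 1 kb. It was 20.4% stromal and 17.9% astromal at 5 to 50 kb, and 21.1% stromal and 24.0% astromal beyond 50 kb.

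Median levels of the listed peaks in elements were similar on the normalised scale, but the lists start at different levels. The lowest listed peak in an element had 10.6 stromal and 15.3 astromal normalised tags, so similar medians do not mean equal levels. The median was 19.8 normalised tags in the stromal list, with quartiles of 14.5 and 27.7, and 20.4 in the astromal list, with quartiles of 17.8 and 25.5. In recovered tags these were 15 and 8. Non-repeat peaks had medians of 22.5 stromal and 20.4 astromal normalised tags, and all peaks 26.4 and 22.9. Stromal levels were higher near genes, in elements and in non-repeat peaks alike. Stromal medians of non-repeat peaks were 26.4 within 1 kb and 17.2 beyond 50 kb. SINE peaks within 1 kb of a TSS had a stromal median of 25.1 and an astromal median of 22.9, and those over 50 kb away had 17.2 and 20.4. For LTR elements the stromal medians were 26.4 within 1 kb and 15.9 beyond 50 kb, and the astromal ones were 20.4 and, from 2 peaks, 28.1.

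**Figure D3:**
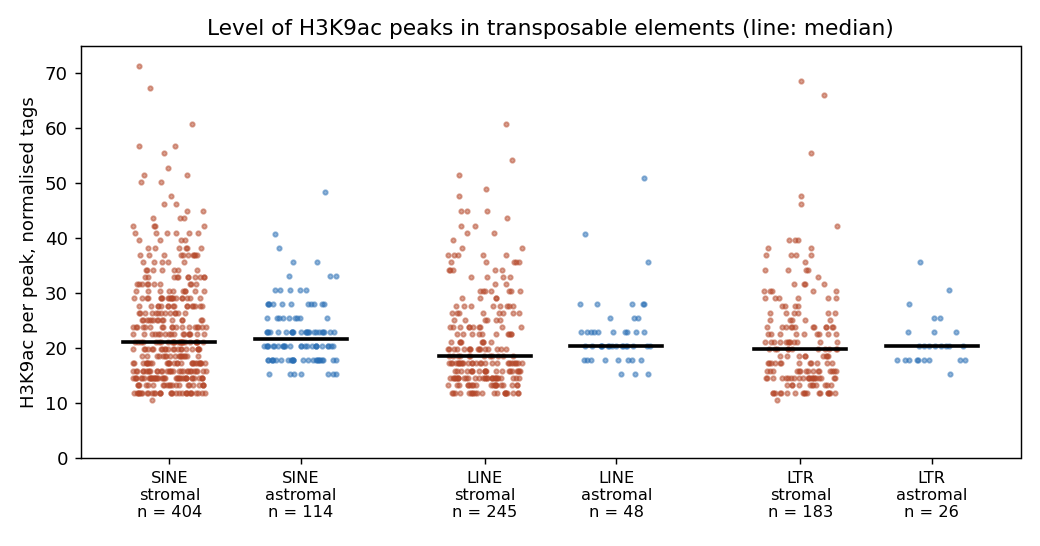
H3K9ac level of each peak in a SINE, LINE or LTR element in normalised tags, with stromal points left of astromal points in each class and a line at the median. Stromal peaks reach 71.3 and astromal peaks 51.0 normalised tags, and the medians lie between 18.5 and 21.7 in all 6 groups.

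For single sites, the level in the other condition is that of the H3K9ac peak overlapping there, which may not itself be annotated to an element. That was so for the astromal peak at SYMPK, LPXN, LINC00959, FAM65A, ZNF778, C20orf96, NRROS and SPTSSA, and for the stromal peak at WSB2, PAXIP1OS, LOC648987, RSAD1, LOC100505549 and COPG1. The highest LINE peaks of the stromal list were in old L2 copies close to promoters. The first was an L2b in intron 1 of 26 of SYMPK, a scaffold protein of mRNA 3′ end formation, on chromosome 19 from 46366012 to 46366222. It had 60.8 stromal and 35.7 astromal normalised tags and overlapped a stromal H3K27ac peak of 24.4. An L2b in intron 1 of LPXN, an adaptor protein of focal adhesions, on chromosome 11 from 58345281 to 58345491, had 54.2 stromal and 25.5 astromal normalised tags. The third, an L2b in intron 1 of the non-coding LINC00959 on chromosome 10 from 131908476 to 131908686, had 51.5 stromal and 35.7 astromal normalised tags, with no stromal H3K27ac peak. An L2c at 2288 bp upstream of TRERF1, a zinc finger transcription regulator, had 48.9 stromal normalised tags and no astromal peak. It lay on chromosome 6 from 42421972 to 42422182.

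In the astromal list the highest LINE peak was an L2c at 25358 bp from the TSS of ZNF786, on chromosome 7 from 148762411 to 148762611, with no stromal H3K9ac peak and 51.0 astromal normalised tags from 20 tags. An L1PA16, a primate L1 copy, in intergenic sequence nearest LINC00971 had 47.6 stromal and 40.8 astromal normalised tags. That astromal peak ran on chromosome 3 from 84597631 to 84597831, and H3K27ac there was 29.1 stromal and 34.9 astromal normalised tags. The remaining LINE peaks of the rule were a HAL1 nearest LOC101927378 on chromosome 7 from 84303015 to 84303215, with 35.7 astromal normalised tags, and an L2 in an intron of LOC100288798 on chromosome 12 from 46943357 to 46943557, with 28. Neither of these overlapped a stromal H3K9ac peak.

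The strongest peak centred in an element was in an AluSq4 at 1279 bp upstream of COX20, an assembly factor of cytochrome c oxidase. It ran on chromosome 1 from 244997255 to 244997465 and had 71.3 stromal and 30.6 astromal normalised tags. H3K27ac at the same place was 35.5 stromal and 34.9 astromal normalised tags. An AluJo in intron 1 of TERF2IP, a telomere protein, on chromosome 16 from 75682792 to 75683002, had 67.4 stromal normalised tags and no astromal peak. MIR3 in intron 1 of VAMP2, a vesicle fusion protein, on chromosome 17 from 8065769 to 8065979, had 60.8 stromal and 30.6 astromal normalised tags. MIRc in intron 1 of FAM65A on chromosome 16 from 67563724 to 67563934 had 56.8 stromal and 22.9 astromal normalised tags.

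The highest astromal SINE peak was in an AluSg4 at 9755 bp upstream of SIRT4, a mitochondrial sirtuin, on chromosome 12 from 120730269 to 120730469. It had 43.6 stromal and 48.4 astromal normalised tags. An AluJb in intron 1 of PBDC1 on chromosome X from 75393023 to 75393223 had 27.7 stromal and 40.8 astromal normalised tags. A MIR in intron 1 of WSB2 on chromosome 12 from 118498274 to 118498474 had 55.5 stromal and 35.7 astromal normalised tags and no H3K27ac peak in either condition.

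Among LTR elements the leading peak was the same in both lists. It lay in HERV17-int, the internal part of an ERV1 provirus, more than 1 Mb from the TSS of CDH18, a cadherin, on chromosome 5 from 18745911 to 18746121. It had 68.7 stromal and 35.7 astromal normalised tags, and the stromal peak overlapped H3K27ac of both conditions, 23.3 in the stromal list. The astromal H3K9ac peak, from 18745782 to 18745982, overlapped neither H3K27ac list. LTR55 at 23762 bp from the TSS of ZNF778 on chromosome 16 from 89307768 to 89307978 had 66.1 stromal and 25.5 astromal normalised tags. LTR79 in an intron nearest LOC101927911 on chromosome 17 from 2879100 to 2879310 had 55.5 stromal normalised tags. LTR8 at 34681 bp upstream of LYN, a kinase of the Src family, on chromosome 8 from 56757600 to 56757810, had 47.6. Neither LTR79 nor LTR8 had an astromal H3K9ac peak.

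Other leading astromal LTR peaks overlapped a stromal peak. LTR48 in intron 1 of PAXIP1OS on chromosome 7 from 154720411 to 154720611 had 50.2 stromal and 30.6 astromal normalised tags. A MER61D nearest LOC648987 on chromosome 5 held 2 astromal peaks, from 43007623 to 43007823 and from 43007941 to 43008141, each of 25.5 normalised tags. The stromal peaks there had 54.2 and 60.8.

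Young L1 copies also carried the mark. L1PA2 and L1PA3, the L1 groups next in age to the active human one, held 27 stromal and 8 astromal peaks, a ratio of 3.38 (1.49 to 8.60). The stromal ones ranged from 11.9 to 42.3 normalised tags around a median of 18.5, and the astromal ones from 15.3 to 22.9 around 20.4. None lay within 1 kb of a TSS, the nearest being at 7.63 kb stromal and 11.9 kb astromal. H3K27ac of the same condition overlapped 7 of the 27 stromal and 4 of the 8 astromal peaks. The place of such a peak among near-identical copies is uncertain. Of the Alu groups, the oldest, AluJ, had 51 stromal and 14 astromal peaks, AluS 145 and 41, and the youngest, AluY, 18 and 7.

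Most stromal peaks in elements had no counterpart in the astromal list. Of the 832 stromal peaks, 116 (13.9%, 11.7 to 16.5) overlapped an astromal H3K9ac peak, against 26.6% of all stromal peaks and 22.7% of the other intron and intergenic peaks. Of the 188 astromal peaks, 117 (62.2%, 54.9 to 69.2) overlapped a stromal peak, against 75.8% of all astromal peaks and 73.9% of the other intron and intergenic peaks. Non-repeat peaks were nearer to them, at 16.8% stromal and 65.9% astromal. Split at 25 normalised tags, stromal peaks in elements were found in the astromal list in 30.8% of the stronger and 5.58% of the weaker cases, and non-repeat peaks in 33.5% and 5.07%. Astromal peaks in elements were found in the stromal list in 71.4% of the stronger and 59.0% of the weaker cases, and non-repeat peaks in 73.2% and 62.5%. By class the stromal shares were 15.6% for SINEs, 13.9% for LINEs and 10.4% for LTR elements, and the astromal ones 64.9%, 54.2% and 65.4%.

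Where H3K9ac was in both lists, the median ratio of stromal to astromal level was lower in elements than over all shared sites. There were 157 such sites, 92 in SINEs, 41 in LINEs and 24 in LTR elements. In 76 of them the peak was centred in an element in both lists, in 73 of those in an element of the same name. The median log2 ratio of stromal over astromal normalised tags was 0.51, a fold of 1.42, and 132 of 157 sites were higher in stromal. Over all 5411 shared sites the median was 0.64, a fold of 1.55, and 90.5% were higher in stromal. Relative to that median, the median log2 ratio was -0.26 in LINEs, -0.12 in SINEs and -0.10 in LTR elements, against -0.03 in other intron and intergenic sites. Those other sites include CpG islands, and their median stromal level was 37 normalised tags, against 31.7 in elements. The ratio in non-repeat sites alone was not examined.

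Sites past a 2-fold difference after this centring were few. In elements, 1 site was higher in stromal, against 0.943% of all shared sites, and 5 were lower, against 1.85%. Without the centring 29 were higher, against 21.2% of all shared sites, and 0 were lower, against 0.0185%. The interval left out 0 at 2 of the 157 sites, RSAD1 and PBDC1, against 1.15% of all shared sites. With a median of 24 stromal and 8 astromal tags per site, differences of this size were mostly not detectable at this depth.

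The highest ratio was at a site in intron 1 of RSAD1, where the astromal peak, centred in a MIRb on chromosome 17 from 48556478 to 48556678, overlapped a stromal peak not annotated to an element. The levels were 66.1 stromal and 17.8 astromal normalised tags. The centred log2 ratio was 1.26 (0.10 to 2.64), from 50 stromal and 7 astromal tags. Then came the site of an AluJb in intron 1 of LOC100505549 with 42.3 stromal and 15.3 astromal normalised tags, on chromosome 18 from 55297870 to 55298070. The site of a MIR3 in intron 1 of COPG1, a subunit of the coat of Golgi vesicles, on chromosome 3 from 128968632 to 128968832, had 72.7 stromal and 28 astromal normalised tags. ZNF778, described above, and a MIR3 in intron 2 of C20orf96 on chromosome 20 from 270677 to 270887, with 56.8 stromal and 22.9 astromal normalised tags, completed the upper end. At these 5 sites, 3 of the ratios set an astromal peak in an element against a stromal peak not annotated to one, and the other two the reverse.

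The lowest ratio was at an L2a at 72463 bp from the TSS of IRF2BPL on chromosome 14 from 77422474 to 77422684, with 15.9 stromal and 25.5 astromal normalised tags. Its centred log2 ratio was -1.32 (-2.66 to 0.05). LTR65 at 35163 bp upstream of SPTSSA, a small subunit of the enzyme that starts sphingolipid synthesis, had 17.2 stromal and 25.5 astromal normalised tags, on chromosome 14 from 34966526 to 34966736. At PBDC1 the centred log2 ratio was -1.20 (-2.20 to -0.16), from 21 stromal and 16 astromal tags. An L3 of the CR1 family nearest NRROS on chromosome 3 from 196339239 to 196339449 had 21.1 stromal and 28 astromal normalised tags. MIR3 in intron 1 of PFDN4, a subunit of the chaperone prefoldin, on chromosome 20 from 52825104 to 52825314, had 25.1 stromal and 33.1 astromal normalised tags.

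**Figure D4:**
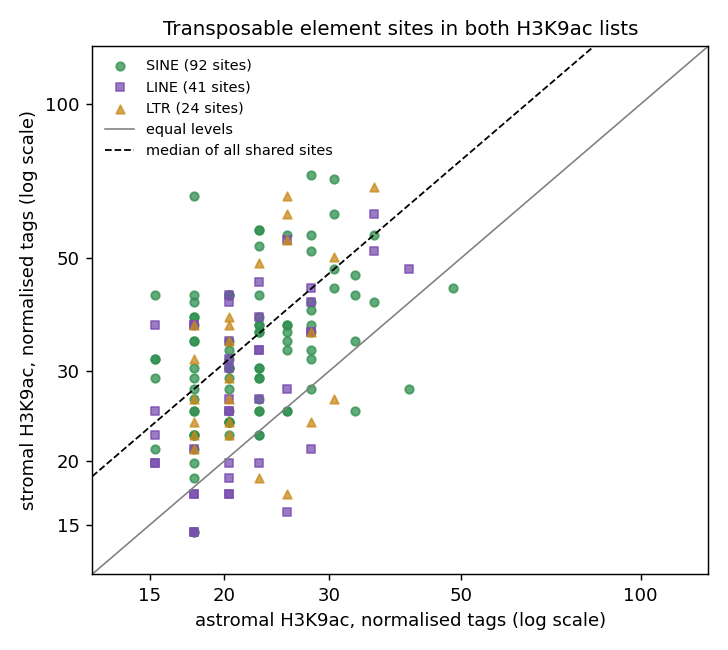
H3K9ac level at the 157 sites in both lists with a peak in an element, stromal against astromal normalised tags on log scales, by class. Most points, 132 of 157, lie above the solid line of equal levels, and they scatter around the dashed line at the median ratio of all shared sites.

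In stromal spheroids 342 of 832 (41.1%, 37.7 to 44.5) overlapped a stromal H3K27ac peak, against 39.9% of all stromal H3K9ac peaks and 33.7% of the other intron and intergenic peaks. In astromal spheroids 86 of 188 (45.7%, 38.5 to 53.2) overlapped an astromal H3K27ac peak, against 59.7% of all astromal peaks and 53.9% of the other intron and intergenic peaks. In non-repeat peaks the shares were 40.6% stromal and 52.7% astromal, and in peaks at CpG islands 25.4% and 54.8%. These shares depend on the rule and on weak peaks. With centres within 500 bp in place of overlap they were 54.3% stromal and 69.1% astromal in elements. Among peaks in elements of at least 25 normalised tags they were 58.0% stromal and 46.9% (32.5 to 61.7) astromal. Non-repeat peaks of that level had 56.8% stromal and 58.6% astromal, so the stromal share was close to that of elements. By the overlap rule, the interval of the elements covers the share of non-repeat peaks in both conditions.

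By class, the H3K27ac share was 42.3% (37.5 to 47.3) stromal and 50.9% (41.4 to 60.4) astromal in SINEs. It was 43.7% (37.4 to 50.1) stromal and 31.3% (18.7 to 46.3) astromal in LINEs, and 35% (28.1 to 42.4) stromal and 13 of 26 peaks (29.9 to 70.1%) astromal in LTR elements. Within each class the intervals of the conditions overlap. L2 had 47 of 103 stromal peaks with H3K27ac and 5 of 24 astromal ones, and L1 had 54 of 129 and 10 of 24. ERV1 had 35 of 108 stromal and 11 of 20 astromal peaks with H3K27ac, Alu 99 of 223 and 31 of 64, and MIR 72 of 181 and 27 of 50. In the smaller families H3K27ac overlapped 12 of 30 stromal peaks in ERVL, 9 of 23 in ERVL-MaLR, 7 of 16 in ERVK and 6 of 11 in CR1.

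**Figure D5:**
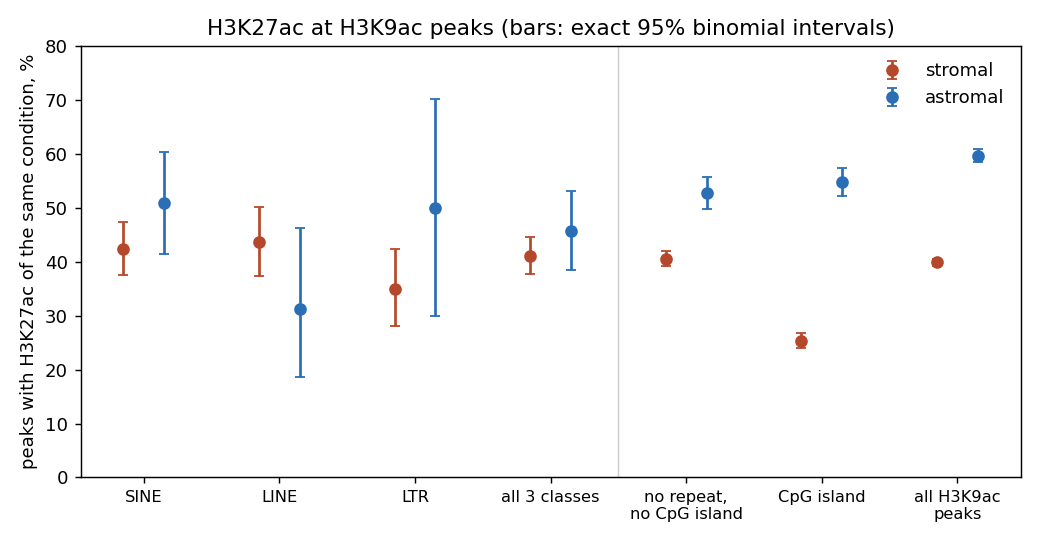
Percent of H3K9ac peaks that overlap an H3K27ac peak of the same condition, by repeat class and in comparison groups, stromal left of astromal, with exact 95% binomial intervals. Elements as a whole stand at 41.1% stromal and 45.7% astromal, and all H3K9ac peaks at 39.9% and 59.7%.

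Where both marks met in an element, the H3K27ac level had a median of 13.4 normalised tags stromal and 16.0 astromal. The authors' fold over input there had medians of 19.1 stromal and 21.9 astromal, against 20.1 and 26.8 in non-repeat peaks. Stromal peaks in elements with H3K27ac had a median H3K9ac level of 23.8 normalised tags and those without had 18.5, while both medians were 20.4 in the astromal list. Non-repeat peaks had stromal medians of 26.4 with H3K27ac and 19.8 without, and astromal medians of 22.9 and 20.4. The stromal difference was thus not particular to elements. The highest H3K27ac levels were at an LTR10A at 32104 bp upstream of NID1, a basement membrane protein, on chromosome 1 from 236260480 to 236260690. H3K27ac was 46.0 stromal normalised tags there and H3K9ac 22.5, and the astromal list held no H3K9ac peak. COX20 followed, and then MLT2B3 nearest TMSB10, an actin-binding peptide, on chromosome 2 from 85147686 to 85147896, with stromal H3K27ac of 34.9. In the astromal list the MER61D nearest LOC648987 led with H3K27ac of 35.7, followed by COX20 and LINC00971 at 34.9 each.

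H3K27ac was also compared at peaks in elements found in one H3K9ac list only. Of the 716 stromal peaks in elements without an astromal H3K9ac peak, 267 (37.3%, 33.7 to 40.9) overlapped stromal H3K27ac, against 33.2% of all such stromal peaks. Astromal H3K27ac overlapped 247 of them (34.5%, 31.0 to 38.1), against 35.1% of all such stromal peaks. In such non-repeat peaks the shares were 35.9% for stromal and 33.6% for astromal H3K27ac. Of the 716 peaks in elements, both H3K27ac lists covered 171, the stromal one alone 96, the astromal one alone 76, and neither 373. Of the 71 astromal peaks without a stromal H3K9ac peak, 24 (33.8%) overlapped stromal H3K27ac, against 37.4% of all such astromal peaks. Astromal H3K27ac overlapped 19 of them (26.8%, 16.9 to 38.6), against 40.2% of all such astromal peaks. In such non-repeat peaks the shares were 33.9% for stromal and 33.9% for astromal H3K27ac, and the latter lies within the interval of the elements. TRERF1 and NID1 each had an H3K9ac peak in the stromal list alone and overlapped an astromal H3K27ac peak.

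Genes that keep transposable elements silent were listed for comparison: the TRIM28 and SETDB1 pathway, the HUSH complex, DNA methyltransferases, H3K9 methyltransferases, HP1 proteins and restriction factors. Of these 30 genes, 25 had a stromal and 12 had an astromal H3K9ac peak within 1 kb of a TSS. Over all protein-coding genes the shares were 48.7% stromal and 24.1% astromal. Of the list, 11 genes had a peak in both conditions, 14 had a stromal peak alone, 1 had an astromal peak alone (EHMT1, an H3K9 methyltransferase) and 4 had none. The share of all protein-coding genes with a peak in only one list is not given here, so these counts have no background of their own. Levels here are sums over the peaks of a gene, whose number can differ between lists. TRIM28, the corepressor recruited by zinc finger proteins, summed to 47.6 stromal normalised tags over 2 peaks and had no astromal peak. DNMT1, the maintenance DNA methyltransferase, had 35.7 in 1 peak and MPHOSPH8, a subunit of HUSH, summed to 31.7 stromal normalised tags over 2 peaks, both without an astromal peak. SETDB1, the H3K9 methyltransferase that works with TRIM28, had 60.8 stromal and 25.5 astromal normalised tags, 1 peak each. ADAR, which edits RNA of paired Alu copies, summed to 117.5 stromal normalised tags over 4 peaks and 43.3 astromal normalised tags over 2 peaks.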

How the data were processed

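ChIP-seq libraries of H3K9ac and H3K27ac from stromal and astromal MIA PaCa-2 spheroids were used, 1 library per mark and condition. The 4 input libraries were not used here. Tools named are CASAVA 1.8.2, Bowtie and HOMER, with build hg19, per the submitters' processing notes, and peaks were called per library. H3K27ac peaks were called at an FDR of 0.001 with at least 4-fold over input, per the file headers. For H3K9ac the thresholds of peak calling are not stated in labels or headers. The authors deposited the signal per peak as tags normalised to 10000000, the distance to the TSS (another deposited value), the nearest gene and the repeat annotation. The deposited ratio, or fold over input, was given for H3K27ac only. H3K9ac tags were recovered from the even steps of the signal, all within 0.1 tag of a whole number.

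An overlap of 1 bp or more made peaks shared, and overlaps were checked against bedtools 2.31.1. Shares and tag ratios carry exact Clopper-Pearson intervals at 95% (scipy 1.17.1), for counting error only. Level ratios were centred on the median of all shared sites, and a site was called past 2-fold. The median H3K9ac peak held 20 stromal and 9 astromal tags. Regions named were the 4 highest peaks per class and list, the 5 highest and 5 lowest ratios, and the 3 highest H3K27ac levels per condition. Some regions that this rule names are not reported here. Families were named from 10 peaks. Gene symbols follow the deposited annotation. Protein-coding genes were counted in a RefSeq table of another build, used for that count alone. Other thresholds, overlaps, distances, centrings and folds were tried. The peaks, classes and gene lists were chosen with earlier results of these data known. Overlap and ratio steps were tested on simulated data.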

Additional observations from a re-analysis of the deposited data

How the results depend on the processing

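With 1 library per group, no replicate could be left out, and none of the intervals covers variation between cultures. No paired analysis was possible because each group held 1 library. Of 77 alternative values for 23 results, 28 stayed within their interval or, for a count, within 1.5 times, 48 moved and 1 changed sign. Leaving out peaks within 10 kb of another peak in an element, an alternative chosen after seeing the data, moved none of the 13 results it was applied to. The low tag numbers of the astromal list limit each comparison of levels.

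At a minimum of 25 normalised tags, peaks in elements numbered 276 stromal and 49 astromal, a ratio of 5.63, and took 2.45% of the stromal and 1.66% of the astromal list. The stromal class shares were then 25.4% LINE, 56.2% SINE and 18.5% LTR. The share in the other H3K9ac list was 30.8% stromal and 71.4% astromal, and the stromal H3K27ac share was 58.0%. The stromal share within 1 kb of a TSS was 37.3% and the stromal median distance 2.73 kb. At or above the median level of each list, the counts were 250 stromal and 86 astromal, a ratio of 2.91, or 2.41% and 2.11% of the lists, with stromal shares of 25.6% LINE, 56.0% SINE and 18.4% LTR. Over 1 kb from a TSS, 108 astromal peaks remained at a ratio of 5.87. The stromal shares there were 42.4% SINE and 26.0% LTR, the astromal ones 33.3% LINE and 50.9% SINE, and elements took 13.2% of stromal and 10.9% of astromal peaks. Among intron and intergenic peaks the shares were 8.99% stromal and 6.80% astromal.

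Asking for 50% of the shorter peak, the share in the other H3K9ac list was 9.01% stromal and 41.0% astromal, and the H3K27ac share 31.1% and 33.0%. With centres within 500 bp these were 19.0% and 84.0%, and 54.3% and 69.1%. With H3K27ac peaks at or above the median of their list, the H3K27ac share was 25.7% stromal and 30.9% astromal. At 2.5 kb in place of 1 kb, 33.4% of stromal and 55.3% of astromal peaks were near a TSS. In recovered tags the ratio of medians, stromal over astromal, was 1.88, against 0.971 in normalised tags. Without centring the median log2 ratio at shared sites was 0.51, against -0.13 with it, since the median of all shared sites is no longer taken off, with 29 sites higher and 0 lower in stromal. At 1.5-fold 9 sites were higher and 26 lower, against 8.56% and 11.3% of all shared sites.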

Other observations

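These values were picked out after they were seen, and no explanation was examined. Genes named as zinc finger genes were nearest to 40 of 832 stromal (4.81%, 3.46 to 6.49) and 16 of 188 astromal (8.51%, 4.94 to 13.5) peaks in elements, against 3.06% and 4.87% of non-repeat peaks. In ERV1 they were nearest to 13 of 108 stromal and 6 of 20 astromal peaks, and in MIR to 5 of 181 and 0 of 50. Many of the stromal ERV1 cases came from the repeats LTR26E, with 5 of 6 peaks, and MER57E3, with 3 of 4. Of stromal LTR peaks within 1 kb of a TSS, 11 of 18 were nearest a zinc finger gene. AluY had H3K27ac at 13 of 18 stromal peaks (72.2%, 46.5 to 90.3), AluS at 44.1% and AluJ at 35.3%, against 39.9% of all stromal H3K9ac peaks. In the astromal list it was at 4 of 7 AluY, 19 of 41 AluS and 8 of 14 AluJ peaks, so this order was not seen there. LTR13, an ERVK repeat, had 8 stromal peaks with a median of 33.1 normalised tags and H3K27ac at 4 of them, and 1 astromal peak. LTR12C, an ERV1 repeat, had 6 stromal peaks with a median of 26.4 normalised tags, and none of the 6 overlapped H3K27ac of either condition. The astromal list held 1 LTR12C peak, with astromal H3K27ac.

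Of the 76 sites centred in an element in both H3K9ac lists, 37 had H3K27ac in both conditions. Over all 5411 shared sites, 2533 did. Some examples in elements follow. An AluSx1 in an intron of ITFG2 had H3K9ac of 55.5 stromal and 25.5 astromal normalised tags. AluY in an intron nearest SRF, a transcription factor of immediate early and cytoskeletal genes, had 42.3 stromal and 20.4 astromal. AluSq nearest TMEM30B had 42.3 stromal and 33.1 astromal, and the young L1PA3 nearest TPRG1-AS1 42.3 stromal and 20.4 astromal.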
